A study of Homo sapiens with 9 samples.

Results

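The transcripts described here are 10 genes of cellular iron handling, chosen by name for their roles in uptake (TFRC, STEAP3 and SLC11A2), storage and its turnover (FTH1, FTL and NCOA4), export (SLC40A1) and sensing (ACO1, IREB2 and FBXL5). All 10 were matched by symbol to Ensembl IDs among the 60880 IDs of the count files, and 9 held enough reads to be tested. They were measured in poly-A RNA-seq libraries of SNU5, an established human gastric carcinoma line grown with fetal bovine serum. In the NR group the cells received AuNR-PEG-Ab, gold nanorods that carry the antibody ramucirumab on polyethylene glycol, and in the SP group AuSP-PEG-Ab, the corresponding gold nanospheres. In the Ab group they received ramucirumab alone, a monoclonal antibody against VEGFR2. All 3 groups had the antibody at 8 μg/mL for 24 h, with 3 libraries per group. No library of untreated cells, of gold without antibody or of polyethylene glycol alone was analysed here, so every difference from the Ab group is one between antibody on a gold carrier and free antibody, and gold and its coating cannot be told apart. The study calls the libraries of a group biological replicates and its in vitro experiments independently repeated, while the labels do not name separate cultures, so the p-values measure the spread between these libraries.

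Most cells take up iron by binding transferrin to the transferrin receptor, encoded by TFRC, and release it in endosomes. There the STEAP3 reductase turns ferric into ferrous iron, and the transporter encoded by SLC11A2 (DMT1) carries it into the cytosol. Iron that is not used is stored in a shell of ferritin heavy (FTH1) and light (FTL) chains, and NCOA4 carries ferritin to the lysosome for breakdown. SLC40A1 encodes ferroportin, the iron exporter. The iron regulatory proteins, encoded by ACO1 and IREB2, bind hairpins called iron-responsive elements when iron is scarce, which blocks translation of messages with an element in the 5′ UTR and protects the TFRC message through elements in its 3′ UTR. FBXL5 is the ubiquitin ligase subunit that removes IREB2 protein when iron is plentiful.

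The elements are short and were read from the canonical GENCODE 44 transcripts on GRCh37, on the transcript strand only. The pattern was a C, 5 bases, the loop CAGTGN and 5 bases that pair with the first 5, with G–T pairs allowed. The canonical UTRs of 4 of the 10 genes held it with all 5 pairs: TFRC at 4 sites, FTH1, FTL and SLC40A1. SLC11A2 held it with 1 pair missing. Of 19553 canonical protein-coding transcripts, 139 (0.711%) held a match with all 5 pairs and 921 (4.71%) one with at most 1 pair missing, the latter including the 3′ UTRs of ACO1 and IREB2. The UTRs searched differ in length, and a match is a description of sequence, not of binding. The sequences are shown because they set apart the messages whose level iron regulatory proteins are known to act on from those whose translation they act on, and capitals mark the C and the loop.
TFRC 3′ UTR (chr3:195777850-195777878, minus strand): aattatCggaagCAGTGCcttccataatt
TFRC 3′ UTR (chr3:195777446-195777474, minus strand): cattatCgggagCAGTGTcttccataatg
TFRC 3′ UTR (chr3:195777381-195777409, minus strand): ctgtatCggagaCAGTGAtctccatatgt
TFRC 3′ UTR (chr3:195777334-195777362, minus strand): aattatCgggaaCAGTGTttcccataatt
FTH1 5′ UTR (chr11:61735046-61735074, minus strand): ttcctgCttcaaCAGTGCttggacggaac
FTL 5′ UTR (chr19:49468592-49468620, plus strand): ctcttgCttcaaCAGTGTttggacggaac
SLC40A1 5′ UTR (chr2:190445387-190445415, minus strand): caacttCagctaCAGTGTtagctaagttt
SLC11A2 3′ UTR (chr12:51382052-51382080, minus strand): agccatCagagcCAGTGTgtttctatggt

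Total counts of replicates 1, 2 and 3 were 19566064, 26318227 and 21031024 in the Ab group, 25735410, 13863155 and 15943980 in the NR group, and 21682836, 22914759 and 20601906 in the SP group. The deposited values are raw read counts per gene. They are given below as CPM, counts scaled to one common library total, when groups are compared, and as TPM, which also divide by the length of the canonical transcript, when genes are compared. Fold changes and adjusted p-values come from edgeR's quasi-likelihood test over all genes with Benjamini-Hochberg adjustment, the error of a log2 fold change is its standard error (SE), and called genes are those with an adjusted p up to 0.05 that also differ by 2-fold or more.

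By TPM, ferritin heavy chain was the most abundant of the 10 messages in the mean of every group and ferroportin the least. In the Ab group FTH1 stood at 3447 ± 159 TPM (SD, n = 3), the 23rd highest of the 27757 genes with a count there, and FTL at 1438 ± 36.9 TPM. NCOA4 followed at 209 ± 10.8 TPM and TFRC at 120 ± 6.15 TPM. Below them came SLC11A2 at 58.9 ± 1.95 TPM, IREB2 at 39.4 ± 3.74, FBXL5 at 29.7 ± 2.61, STEAP3 at 24.2 ± 1.17 and ACO1 at 17.5 ± 0.509 TPM. No neighbours in this order overlapped among the Ab libraries. In the NR group TFRC, at 495 ± 29.1 TPM, stood above NCOA4, at 269 ± 5.19 TPM, and IREB2, at 42.6 ± 2.09 TPM, overlapped with STEAP3, at 41.7 ± 0.983 TPM. In the SP group FTH1, at 2497 ± 74.4 TPM, overlapped with FTL, at 2366 ± 140 TPM, across libraries, although FTH1 was the higher of the pair within each SP library.

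Against free antibody, 7 of the 9 tested messages were higher in both carrier groups and 2, FTH1 and FBXL5, were lower, all past the adjusted p. The CPM of carrier and Ab libraries did not overlap for any of the 9. How many of all genes tested were free of overlap was not computed, so the lack of overlap is not read as a trait of the 9. These counts have to be read against a transcriptome in which most genes passed the same test: in NR against Ab 36.4% of the 15009 genes tested passed it as higher and 36.4% as lower, and in SP against Ab 36.4% and 36.6% of 15068. With the 2-fold minimum, the NR group had 2 of the 9 called higher (TFRC and ACO1) where 12.4% of all genes were called higher and 10.3% lower, and the SP group had 1 (TFRC) where the shares were 12.6% and 10.6%. The median log2 fold change of the 9 was 0.55 in NR and 0.46 in SP, where the medians of all genes tested were -0.01 and -0.01. Both comparisons share the 3 Ab libraries, so they are not independent of each other. In bulk RNA, fewer cells of a kind and less message per cell cannot be told apart.

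**Figure D1:**
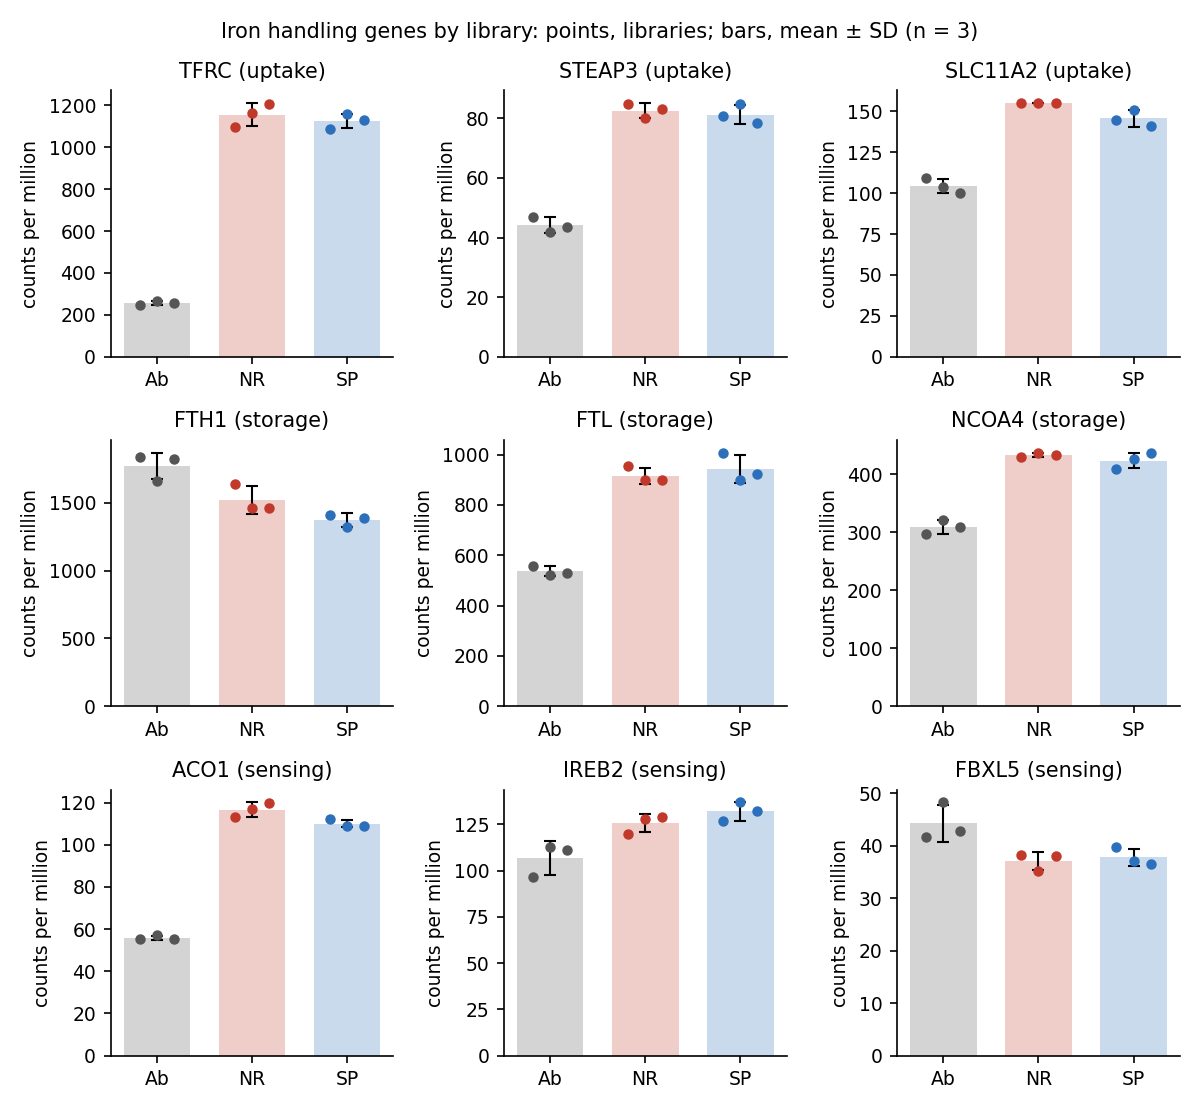
Level of 9 iron handling genes in each library, in CPM on linear axes that start at 0. Points are libraries, bars are group means and error bars the SD over 3 libraries; TFRC lies at 246 to 267 CPM in the Ab group and at 1089 to 1207 CPM in the NR and SP groups, while FTH1 is highest in the Ab group.

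The uptake genes rose together. TFRC (chromosome 3, 195739382 to 195809024, minus strand on GRCh37) had 246, 267 and 258 CPM in the Ab libraries, 1098, 1163 and 1207 CPM in the NR libraries, and 1089, 1157 and 1131 CPM in the SP libraries. Every carrier library lay far above every Ab library, and the NR and SP libraries overlapped. The fold over Ab was 4.42 (95% interval 4.14 to 4.71; edgeR adjusted p = 5.59e-25) in NR and 4.31 (4.04 to 4.59; adjusted p = 2.48e-24) in SP. By TPM, TFRC moved from rank 1526 in the Ab group to 280 in NR and 272 in SP. Large rises were common in these data, and that of TFRC was the 500th largest of 15009 in NR (top 3.33%) and the 542nd of 15068 in SP (top 3.6%).

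STEAP3, the endosomal ferrireductase (chromosome 2, 119981407 to 120023228, plus strand), had 46.9, 41.7 and 43.7 CPM in the Ab libraries, 84.9, 80 and 83 CPM in NR, and 80.8, 84.7 and 78.4 CPM in SP. All 6 carrier libraries lay above the Ab libraries, with a log2 fold change of 0.88 ± 0.06 (SE; edgeR adjusted p = 1.16e-13) in NR and 0.86 ± 0.06 (adjusted p = 1.15e-12) in SP, short of 2-fold in both. Another annotated gene shares 11% of its exon bases. SLC11A2, the ferrous iron transporter (chromosome 12, 51373184 to 51422349, minus strand), had 109, 104 and 100 CPM in the Ab libraries, 155 CPM in each NR library, and 145, 151 and 141 CPM in SP. Its rise was 1.46-fold in NR (edgeR adjusted p = 3.37e-11) and 1.38-fold in SP (adjusted p = 5.8e-09). The gene makes messages with and without the 3′ UTR element shown above, and gene counts do not separate them.

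The storage genes moved in different directions. FTH1 (chromosome 11, 61727190 to 61735106, minus strand) had 1838, 1666 and 1824 CPM in the Ab libraries, 1640, 1462 and 1464 CPM in NR, and 1413, 1320 and 1391 CPM in SP. The Ab libraries were the highest, although the lowest of them lay only just above the highest NR library. The log2 fold change was -0.25 ± 0.05 (SE; edgeR adjusted p = 0.000121) in NR and -0.39 ± 0.05 (adjusted p = 1.45e-08) in SP. FTL (chromosome 19, 49468566 to 49470136, plus strand) had 558, 521 and 530 CPM in the Ab libraries, 954, 899 and 898 CPM in NR, and 1008, 899 and 923 CPM in SP. It rose 1.68-fold in NR (95% interval 1.58 to 1.78; edgeR adjusted p = 2.76e-15) and 1.73-fold in SP (1.62 to 1.85; adjusted p = 1.57e-14). By these counts the 2 ferritin chains moved apart, with the heavy chain lower and the light chain higher than with free antibody in both carrier groups. The fall of FTH1 is uncertain, since other annotated genes share many of its exon bases, as given below.

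NCOA4, the cargo receptor that takes ferritin to the lysosome (chromosome 10, 51565199 to 51590734, plus strand), had 297, 322 and 309 CPM in the Ab libraries, 430, 437 and 434 CPM in NR, and 409, 426 and 436 CPM in SP. The carrier libraries were all higher, by 1.38-fold in NR (edgeR adjusted p = 1.13e-10) and 1.35-fold in SP (adjusted p = 1.87e-09). Ferritin genes have processed copies elsewhere in the genome that can take or lose reads. The 25 annotated FTH1 pseudogenes, led by FTH1P2, held 2.14% to 3.99% of the counts summed over FTH1 and its copies, the 16 of FTL (led by FTLP3) 0.226% to 0.329%, and the 4 of NCOA4 (led by NCOA4P3) 0.0615% to 0.192%. With the copies added, FTH1 and FTL kept their direction and stayed past the adjusted p against Ab. Other annotated genes share 63.2% of the exon bases of FTH1, and its neighbour on the opposite strand, BEST1 (chromosome 11, 61717535 to 61732987), had 441, 538 and 428 counts in the Ab libraries but 9 to 26 in the NR and SP libraries. No source states that counting used strand, so reads of FTH1 and BEST1 cannot be told apart where they overlap. The small change of FTH1 and its ratios in the next paragraph are uncertain for this reason.

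**Figure D2:**
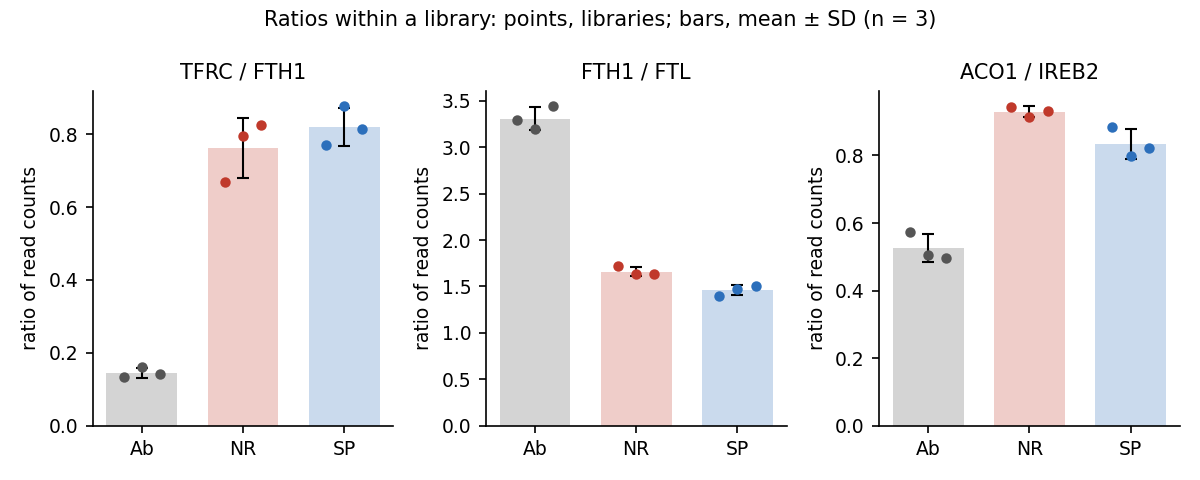
Ratios of read counts within a library for TFRC to FTH1, FTH1 to FTL and ACO1 to IREB2, on linear axes that start at 0. Points are libraries, bars are group means and error bars the SD over 3 libraries; the Ab libraries have the lowest TFRC to FTH1 and the highest FTH1 to FTL ratios.

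Ratios within a library do not depend on scaling between libraries. The ratio of TFRC to FTH1 counts was 0.134, 0.16 and 0.142 in the Ab libraries, 0.669, 0.795 and 0.824 in NR, and 0.77, 0.876 and 0.813 in SP. The ratio of FTH1 to FTL counts was 3.29, 3.2 and 3.44 in Ab, 1.72, 1.63 and 1.63 in NR, and 1.4, 1.47 and 1.51 in SP. The carrier libraries thus held more receptor message for each heavy chain message and fewer heavy chain messages for each light chain message, and the FTH1 to FTL ratios of the 3 groups did not overlap. Per length of transcript, heavy to light chain was 2.32 to 2.49 in Ab, 1.18 to 1.24 in NR and 1.02 to 1.09 in SP. An exact two-sided permutation test of 3 libraries against 3 cannot give a p below 0.10, so no p is given for these ratios.

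SLC40A1, the only exporter of the 10 (chromosome 2, 190425316 to 190448484, minus strand), was not detected beyond a single read, in NR replicate 1. The other 8 libraries had 0 counts, and a count of 0 allows up to 3 counts, or 0.114 to 0.216 CPM at these depths, for counting error only. No fold change can be given, and a change below this limit was not detectable.

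The sensing genes moved by different amounts. ACO1, the iron regulatory protein that is a cytosolic aconitase when it holds an iron-sulfur cluster (chromosome 9, 32384601 to 32454767, plus strand), had 55.1, 57.1 and 55.2 CPM in the Ab libraries, 113, 117 and 120 CPM in NR, and 112, 109 and 109 CPM in SP. Each carrier library lay far above the Ab libraries, with a log2 fold change of 1.04 ± 0.05 (SE; edgeR adjusted p = 1.83e-16) in NR and 0.95 ± 0.06 (adjusted p = 7.3e-15) in SP. These values lie on either side of the 2-fold minimum (2.05-fold and 1.94-fold), both 95% intervals include it, and between the carriers the log2 difference was 0.08 (interval -0.01 to 0.18; edgeR adjusted p = 0.428).

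IREB2, the other iron regulatory protein (chromosome 15, 78729773 to 78793795, plus strand), had 96.3, 113 and 111 CPM in the Ab libraries, 120, 128 and 129 CPM in NR, and 127, 137 and 132 CPM in SP. No carrier library overlapped with the Ab libraries, but the rise was small, 1.15-fold in NR (edgeR adjusted p = 0.00184) and 1.21-fold in SP (adjusted p = 7.38e-05). Without Ab replicate 1, the lowest of the 9, the log2 fold change in NR went from 0.20 to 0.13 and stayed past the adjusted p. The ratio of ACO1 to IREB2 counts was 0.497 to 0.573 in the Ab libraries, 0.914 to 0.944 in NR and 0.797 to 0.883 in SP. FBXL5 (chromosome 4, 15606004 to 15683302, minus strand) had 41.7, 48.3 and 42.9 CPM in the Ab libraries, 38.2, 35.1 and 38.1 CPM in NR, and 39.7, 37.1 and 36.5 CPM in SP. It was lower with both carriers, with a log2 fold change of -0.28 ± 0.07 (SE; edgeR adjusted p = 0.000625) in NR and -0.26 ± 0.07 (adjusted p = 0.00129) in SP.

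**Figure D3:**
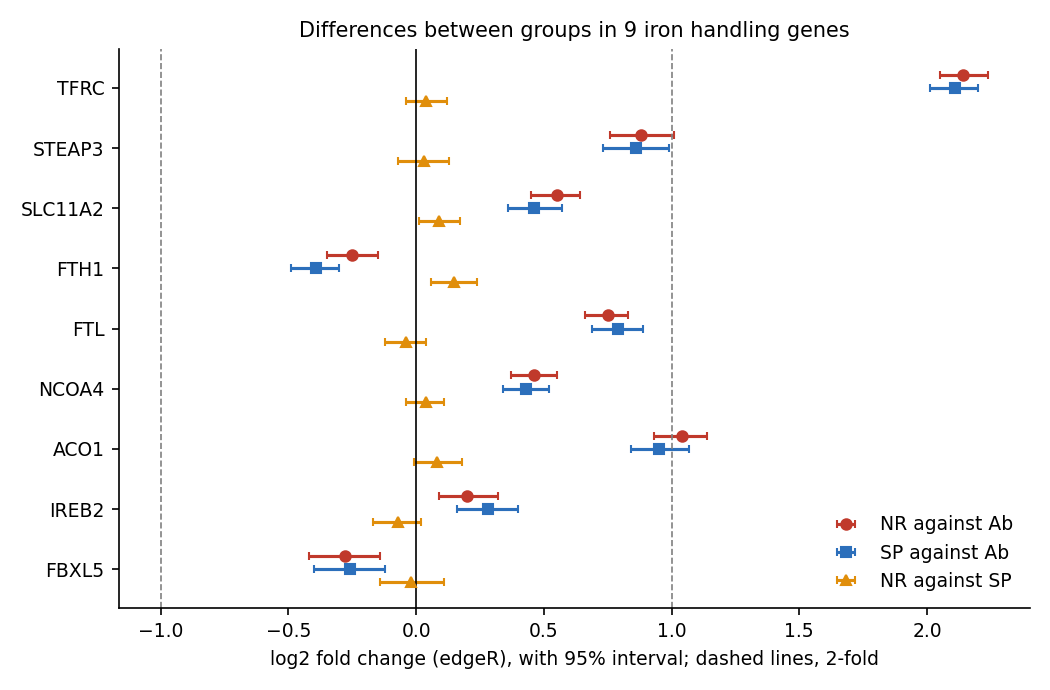
Log2 fold change of 9 iron handling genes in NR against Ab, SP against Ab and NR against SP, fitted with edgeR. Points are fitted values, bars 95% intervals and dashed lines 2-fold; TFRC lies near 2.1 against Ab with both carriers, and the NR against SP values lie between -0.07 and 0.15.

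Nanorods and nanospheres, given at the same antibody dose and time, were compared directly for all 9 tested messages, and none passed the adjusted p with edgeR (2 were at an unadjusted p under 0.05, and DESeq2, or edgeR with no filter on low counts, put 1 past the adjusted p). Across all 14903 genes tested, 0.443% passed the adjusted p, 66 in all, and 12.9% were at an unadjusted p under 0.05. The median log2 difference of the 9 was 0.0353, where that of all genes was -0.000456. For TFRC the difference was 0.04, with a 95% interval of -0.04 to 0.12, a fold of 0.974 to 1.08. The intervals were -0.12 to 0.04 for FTL, -0.07 to 0.13 for STEAP3, -0.04 to 0.11 for NCOA4, -0.17 to 0.02 for IREB2, -0.01 to 0.18 for ACO1 and -0.14 to 0.11 for FBXL5, so these libraries allow only small differences between the carriers in either direction.

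The 2 members at an unadjusted p under 0.05 were FTH1 and SLC11A2. FTH1 was higher in every NR library (1462 to 1640 CPM) than in any SP library (1320 to 1413 CPM), by 0.15 on the log2 scale (95% interval 0.06 to 0.24; edgeR adjusted p = 0.103). With DESeq2 its adjusted p was 0.0273, with no filter on low counts 0.00432, and over the remaining settings 0.0816 to 0.335. Without NR replicate 1 the difference was 0.091 (adjusted p = 0.329). The iron transporter SLC11A2 was at 155 CPM in each NR library and 141 to 151 CPM in SP, a log2 difference of 0.09 (95% interval 0.01 to 0.17; edgeR adjusted p = 0.352).

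The 5 genes whose profile over the 9 libraries was closest to that of TFRC, by root mean square difference of log2(CPM + 1) centred on the Ab mean, were RHOU (0.0497), TSPAN15 (0.058), KITLG (0.0586), KLHL13 (0.0612) and CTSF (0.0695), out of 10763 genes compared. RHOU had 17.8 to 19.7 CPM in the Ab libraries, 82.8 to 87.6 in NR and 80.8 to 84.4 in SP. KITLG, the ligand of the KIT receptor, had 16 to 18.2, 76.4 to 79.2 and 77.3 to 80.4 CPM. None of the 5 is among the 10 iron genes or the wider list below, and the profiles come from the same 9 libraries and share their depths.

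A wider list of 89 iron genes was read in the same way, and 74 of them could be tested. In NR, 37 were higher and 22 lower past the adjusted p, with 12 called higher and 4 lower. In SP, 39 were higher and 23 lower, with 12 called higher and 3 lower. Their median log2 fold changes were 0.27 (NR) and 0.18 (SP). Of all genes tested, 36.4% were higher and 36.4% lower past the adjusted p in NR, and 36.4% and 36.6% in SP. The counts of this list, and of each role group below, have to be read against these shares. Genes of this list named in the next paragraphs passed the adjusted p in both carrier groups unless stated. Between NR and SP none of the 74 passed the adjusted p with edgeR, and 16 were at an unadjusted p under 0.05, where 12.9% of all genes tested were.

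Among the other uptake genes, 6 of the 13 tested were higher and 2 lower past the adjusted p in each carrier group. The shares of all genes were 36.4% higher and 36.4% lower in NR, and 36.4% and 36.6% in SP. STEAP4, a metalloreductase of the STEAP family, had 6.65 to 7.37 CPM in the Ab libraries, 45.4 to 49.5 in NR and 42 to 48.4 in SP, 6.61-fold and 6.37-fold higher. CYBRD1, a ferric reductase at the cell surface, had 12 to 13.9, 53.9 to 58.8 and 41.7 to 52.5 CPM, 4.28-fold and 3.71-fold higher. HFE, which binds the transferrin receptor, had 14.8 to 17.1, 40.7 to 42.3 and 42.2 to 46.1 CPM, 2.63-fold and 2.78-fold higher. SLC39A14, a transporter of zinc and of iron that is not bound to transferrin, was the most abundant of these genes in Ab and went the other way, from 381 to 399 CPM in Ab to 229 to 240 in NR and 220 to 247 in SP. Its log2 fold change was -0.76 in NR (edgeR adjusted p = 2.2e-15) and -0.75 in SP (adjusted p = 4.43e-14).

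Of the storage genes and iron chaperones outside the 10, 3 were tested. PCBP2, a chaperone that delivers iron to ferritin, fell from 197 to 206 CPM in Ab to 149 to 157 in NR and 135 to 141 in SP, with a log2 fold change of -0.44 and -0.59 and, like PCBP1 (-0.18 and -0.31), it passed the adjusted p in both. HERC2, a ubiquitin ligase, was at -0.05 in NR, which did not pass, and at 0.13 in SP, which did. PCBP1 shares 73.2% and PCBP2 32.7% of exon bases with other annotated genes, so both are uncertain.

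In the group of export and systemic control, 6 of 12 genes could be tested. ERFE, the hormone erythroferrone that lowers hepcidin, had 24.7 to 28 CPM in the Ab libraries, 3.32 to 4.86 in NR and 4.08 to 4.43 in SP, with a log2 fold change of -2.73 ± 0.12 (SE; edgeR adjusted p = 5.49e-18) and -2.65 ± 0.10 (adjusted p = 1.33e-18). ABCG2, an exporter that also takes porphyrins, was 2.24-fold and 2.52-fold higher. BMP6, an inducer of hepcidin, was at -0.75 and -0.79 on the log2 scale. FLVCR2 was also called, at 1.31 and 1.21, with under 100 counts in each library and 27.6% of its exon bases shared with other annotated genes.

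Of 6 tested messages listed for iron-responsive elements outside the 10, 3 were higher and 3 lower in each comparison. CDC42BPA, a kinase that acts on the cytoskeleton, had 113 to 130 CPM in Ab, 54.8 to 57.9 in NR and 60.3 to 64.8 in SP. EPAS1, a hypoxia-inducible transcription factor, was at -0.81 and -0.79 on the log2 scale. The canonical EPAS1 and CDC42BPA transcripts held no match to the pattern searched here.

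The genes of mitochondrial iron-sulfur cluster formation and iron import were mixed, with 10 of the 22 tested higher and 7 lower past the adjusted p in each carrier group. Of all genes tested, 36.4% were higher in each carrier group, and 36.4% (NR) and 36.6% (SP) lower. SLC25A37, the mitochondrial iron importer mitoferrin 1, had 128 to 144 CPM in the Ab libraries, 45.9 to 50.7 in NR and 44.7 to 47.3 in SP, with a log2 fold change of -1.47 and -1.55. FDXR, the ferredoxin reductase, was 3.69-fold and 4.43-fold higher, and CISD3, an iron-sulfur protein, 2.54-fold and 2.47-fold. Other annotated genes share 54.6% of the exon bases of CISD3. HSPA9, the most abundant of these genes in Ab and a chaperone of cluster transfer, had 1792 to 1928 CPM in Ab and 972 to 1010 in the carrier libraries. BOLA3 was called in NR only, at 2-fold, where SP had 1.97-fold.

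Of 10 cytosolic iron-sulfur assembly genes tested, 5 were lower and 2 (CIAO2A and MMS19) higher past the adjusted p in both carrier groups, CIAPIN1 was lower past it only in the NR test (-0.14, with -0.10 in SP) and CIAO1 only in the SP test (-0.15, with -0.09 in NR). GLRX3, a glutaredoxin and the most abundant of them in Ab, was at -0.62 and -0.60, and NDOR1, the reductase of the pathway, was called lower in NR at -1.04 and had -0.89 in SP, but shares 36% of its exon bases with other annotated genes and is uncertain. The haem genes, in contrast, lay above Ab. Of 10 haem synthesis genes, 9 passed as higher in NR and 10 in SP, where 36.4% of all genes tested did in each. Their median log2 fold changes were 0.61 and 0.60. TMEM14C, which carries a porphyrin precursor into mitochondria, rose 1.48-fold and 1.42-fold, and FECH, ferrochelatase, was called in SP at 1.09 and had 0.98 in NR.

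All 4 haem breakdown genes passed as higher in both carrier groups, with medians of 1.18 and 1.15. BLVRB had 33 to 34.4 CPM in Ab, 102 to 108 in NR and 102 to 112 in SP, and BLVRA, the other biliverdin reductase, had 24.4 to 27.3, 73.9 to 74.1 and 68.6 to 73.3 CPM. The haem oxygenases HMOX1 (0.84 and 0.84) and HMOX2 (0.42 and 0.30) rose less. The rule for naming genes did not pick PCBP1, HERC2, FLVCR2, BOLA3, CIAO2A, MMS19, CIAPIN1, CIAO1, NDOR1, FECH, HMOX1 and HMOX2, which were chosen after seeing their values.

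Markers of several cell types moved with the same groups. The 6 epithelial markers, led by KRT8, summed to 936, 879 and 886 CPM in the Ab libraries, 2248, 2258 and 2283 in NR, and 2405, 2309 and 2319 in SP, with CDH1 at 5 to 9 counts in Ab and KRT19 at 0 or 1 count everywhere. The 5 gastric markers, led by MUC5AC, summed to 116, 107 and 109 CPM in Ab, 25.5, 28.6 and 27.9 in NR, and 50.7, 30.7 and 23.8 in SP. The epithelial sum was thus higher and the gastric sum lower in both carrier groups, and KRT8 and MUC5AC carried most of them. Single markers differed, since CLDN4 was at 0.09 in NR and 0.09 in SP on the log2 scale and did not pass the adjusted p of edgeR, and among the gastric markers GKN1 was higher (1.57 and 1.03), as was CLDN18 in SP (1.86), past it. KDR, which encodes the VEGFR2 target of the antibody, had 0 counts in 8 libraries and 1 in NR replicate 3. From flow cytometry of the labelled antibody, the paper proposes that SNU5 could express VEGFR2 highly. That assay reads antibody on or in cells and not RNA, and the difference was not tested.

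The 5 fibroblast markers, led by COL1A1, summed to 44.8, 42 and 17.3 CPM in Ab, 99.8, 97 and 95.3 in NR, and 100, 108 and 105 in SP. Within this list LUM (log2 fold change 5.30 in NR and 5.35 in SP) and DCN (5.14 and 5.23) passed the adjusted p, while COL1A1 (0.63 and 0.72), COL1A2 (-3.56 and -1.81) and COL3A1 (0.03 and 0.27) did not. The 3 endothelial markers matched of 4, led by CDH5, summed to 3.53, 3.72 and 5.04 CPM in Ab, 22.9, 23.4 and 21.3 in NR, and 20.8, 22.9 and 24 in SP. The 7 leukocyte and macrophage markers, led by CSF1R, summed to 1.33, 0.798 and 0.571 CPM in Ab, 3.07, 4.54 and 4.64 in NR, and 6.09, 4.06 and 2.96 in SP. These 3 sums were higher in both carrier groups. The leukocyte sum followed CSF1R (4.10 and 4.25), while CD14 was lower in NR (-1.52, edgeR adjusted p = 0.0201) and not tested in SP, the leukocyte defining gene PTPRC had at most 1 count and CD163 and LYZ had 0 in all 9 libraries.

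Developing red cells take up much iron and hepatocytes make transferrin, so markers of both were read as well. The 6 erythroid markers, led by GATA1, summed to at most 0.102 CPM in Ab, 0.466 in NR and 0.692 in SP. Among the globins, HBB was at 0 in every library. HBA1 had 0 counts in each Ab library, 3, 0 and 2 in the NR libraries and 14, 1 and 1 in the SP libraries. The 4 hepatocyte markers, led by HAMP, summed to at most 0.307 CPM in Ab, 0.0389 in NR and 0.0922 in SP, and TF had at most 1 count. Both sums were thus below 1 CPM in every library. Mitochondrial genes took 3.41% to 3.71% of the counts in Ab, 4.36% to 4.59% in NR and 4.4% to 4.66% in SP. The part of the markers, of the mitochondrial share and of depth in the differences from Ab was not tested, and since no batch is given, a difference in culture or batch and the group cannot be told apart.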

How the data were processed

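The authors cleaned the reads, aligned them with HISAT2 2.1.0 to human hg19 and counted them per gene; the submitters' processing notes list mm9, but the IDs are human. The deposited values are raw counts in 9 columns. Of 60880 IDs, 59858 matched GENCODE 44 on GRCh37, which gave symbols, positions and lengths, and 1022 did not, with up to 0.115% of the counts. The annotation release of the counts is not given in the sources used here.

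Groups were compared in pairs on 6 libraries with edgeR 4.0.16 in R 4.3.3 (TMM, filterByExpr with a minimum count of 10 and a minimum total of 15, robust quasi-likelihood test, Benjamini-Hochberg adjustment). Alternatives were DESeq2 1.42.0, RLE scaling, other filters and fold minimums, a fit of all 9 libraries, a block for the replicate number, pseudogenes summed and each library left out. The steps were tested on simulated data. TPM used canonical transcript lengths.

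The genes, lists and tests were chosen with earlier results of these data known. Named outside the 10 were, per role, up to 4 genes called in both carriers with a mean of at least 100 counts and the smallest p, the most abundant gene in Ab, and the 5 genes most like TFRC. Any 2 libraries of a group differed by more than sampling noise, at a chi-square per gene of 1.8 to 6.81. A few genes that the naming rule picked are not reported here.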

Additional observations from a re-analysis of the deposited data

How the results depend on the processing

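Against Ab, each of the 110 member values recomputed in NR and of the 110 in SP kept its direction and its side of the adjusted p of 0.05, leaving out each library included. TFRC ranged from 2.11 to 2.17 in NR and from 2.07 to 2.13 in SP when libraries were left out, and ACO1 from 1.01 to 1.05 and from 0.93 to 0.97. The counts of calls depended on the fold minimum. With 1.5-fold, 4 members were called in NR and 4 in SP in place of 2 and 1, and with no minimum 9 and 9. Of the 74 other pathway genes, 16 and 15 were called, 34 and 37 with 1.5-fold, and 59 and 62 with no minimum. The fewer calls at 2-fold follow from the threshold itself.

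In NR against SP, 105 of 110 member values kept direction and side. DESeq2 and no filter each put 1 member, FTH1, past the adjusted p where edgeR with its filter put 0, at the same log2 difference of 0.15. With libraries left out, FTL ranged from -0.074 to 0.013, turning without SP replicate 1, and FBXL5 from -0.039 to 0.024, turning without NR replicate 2 (0.018) or SP replicate 1, none past the threshold. The cause was not tested.

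Same-numbered libraries hardly deviated together (correlations of -0.0317 to 0.0279 over 15471 genes). These values cannot show whether such libraries had a culture or preparation in common. With the replicate block, 2 members were called in NR, 1 in SP and 0 between the carriers, and 16, 15 and 0 pathway genes, the same counts as without it, and TFRC was at 2.14 and 2.11. Another scaling moved the median of all genes by under 0.1 on the log2 scale. Depth limits SLC40A1, which could not be tested. For the other members the intervals also hold the spread between the 3 libraries of a group, which exceeded sampling noise over all genes.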
